A study of Mus musculus with 2 samples.

Results

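Testis clone genes are genes still listed under the name of a RIKEN cDNA clone with a number that marks a testis library (1700, or one of several numbers beginning with 49). The rule uses this name alone, over probe sets that the platform annotation gives a single gene symbol, and no measured value is part of it, although the rule was written with earlier results of these data known. There were 63 such genes, read by 79 probe sets, among 12393 genes with a single symbol. Messenger RNA had been measured in testes of mice aged 17 days, of mixed 129SV and C57BL strain, on Affymetrix mouse genome 430A 2.0 arrays. The wild type group and the UBR2-/- group, which lacks the ubiquitin ligase UBR2, had 1 array each (n = 1), with 2 testes from different littermates named for each. The sources used here do not say whether those testes were pooled or which part of Ubr2 the UBR2-/- allele removes. Without replicate arrays there was no check of the spread and no test, and every value below describes these 2 arrays.

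RIKEN clone names were given while full-length cDNAs from many mouse tissues were sequenced, and a gene keeps such a name until a function or a family gives it another. A name from a testis library records where a clone was first sequenced, not that the transcript is made only there. Adult testis, the usual source of such libraries, is rich in late spermatocytes and spermatids, while at 17 days the first wave of germ cells has reached the pachytene stage of meiosis and few cells have gone further. UBR2 belongs to the N-end rule pathway, which reads the first residue of a protein as a signal for its breakdown, and it has been studied for its role in male meiosis.

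Of the 63 testis clone genes, 25 were bright enough to be compared, and in 13 of these 25 the UBR2-/- signal was at least 2-fold lower, against 3.52% of all 8091 compared genes. None of the 25 was at least 2-fold higher, against 0.346% of all compared genes, and 12 lay between. Their median log2 ratio (UBR2-/- over wild type) was -1.08, with quartiles of -1.67 and -0.28, beside 0.07 for all compared genes. A gene was compared when the mean of its 2 signals reached 24.55, the mean of both floors, where the floor is the 40th percentile of an array (24.4 for wild type, 24.7 for UBR2-/-). Signals under the floor were set to it, and where this applied to a single array the fold is a lower bound, written "at least". In whole testis, fewer cells of a type and less RNA per cell cannot be told apart. The rule favours genes that are bright on either array, and 6 of the 25, all among the 13, passed through the wild type array alone, so the count is a description. When a signal of at least 50 on the UBR2-/- array was required instead, 6 of 17 testis clone genes were at least 2-fold lower, against 2.24% of 6927 genes. With the same limit on the wild type array it was 13 of 25, against 4.07% of 6901 genes.

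**Figure D1:**
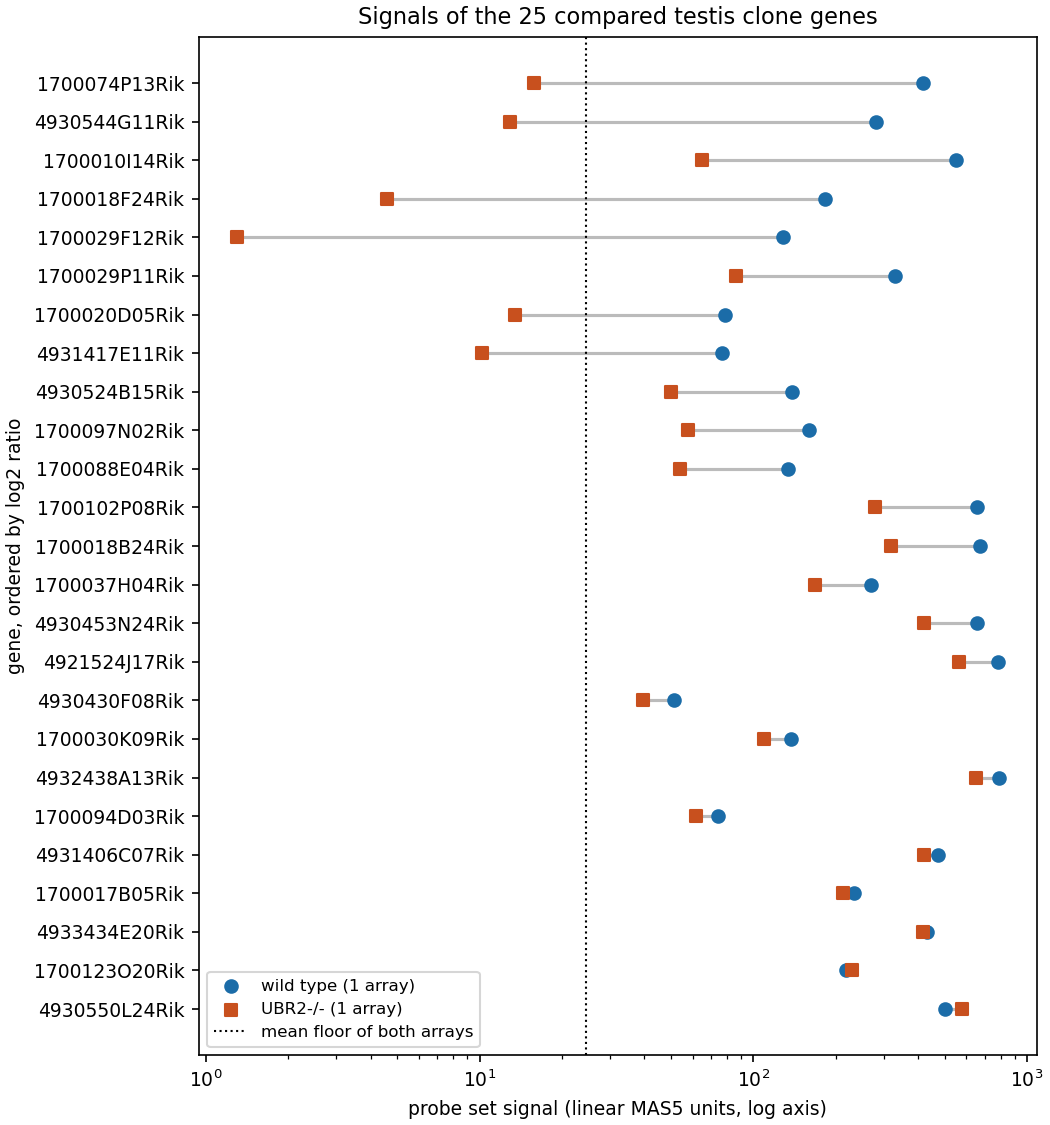
Probe set signal (linear units on a log axis) of the 25 compared testis clone genes on the wild type array (circles) and the UBR2-/- array (squares), ordered by log2 ratio, with the mean floor of 24.55 as a dotted line. In the upper rows the squares lie far to the left of the circles, 6 of them left of the floor, and in the lowest 2 rows the square lies to the right.

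Other genes with a symbol ending in Rik, whose clones came from other libraries, were spread like all genes. Of 107 such genes 66 were compared, of which 2, or 3.03%, were at least 2-fold lower and 0 at least 2-fold higher, with a median log2 ratio of 0.03. The pair that was lower was 1110032A03Rik, with a wild type signal of 368.2 and a UBR2-/- signal of 122.5 (3.01-fold), and 3110070M22Rik, with 53.4 and 5.0 (at least 2.16-fold). At 3-fold the counts were 8 of 25 testis clone genes, 1 of 66 other Rik genes and 121 of 8091 genes. At 8-fold they were 3 of 25, 0 of 66 and 21 of 8091. Of the 25 testis clone genes, 23 lay below the median of all compared genes, as did 36 of the 66 other Rik genes.

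**Figure D2:**
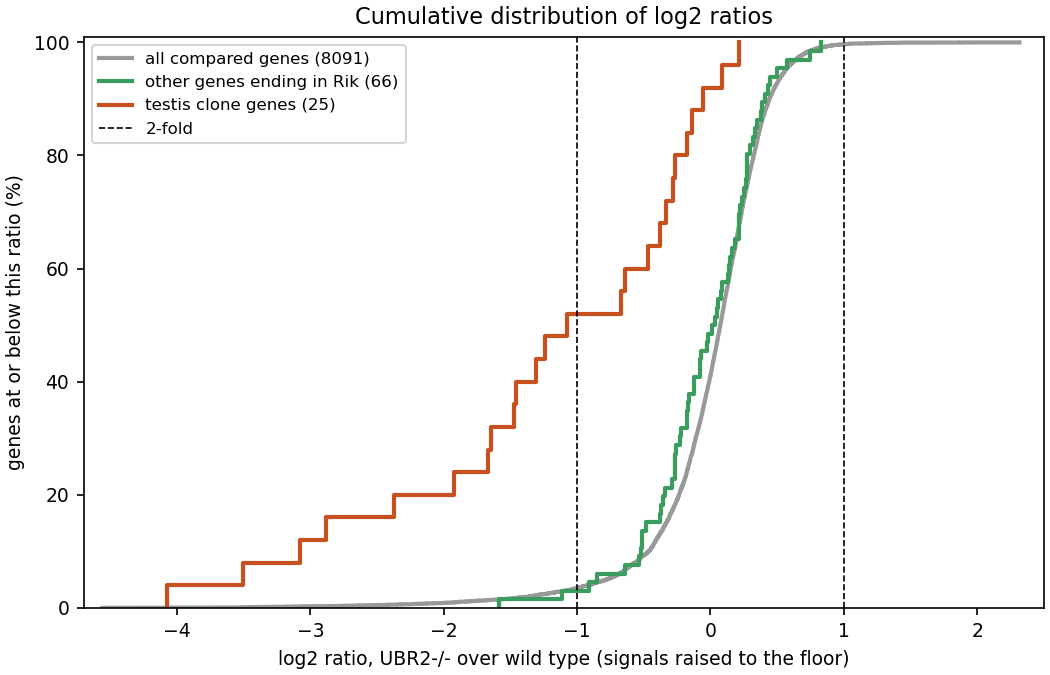
Cumulative share of genes (percent) at or below each log2 ratio of UBR2-/- over wild type, for the 25 testis clone genes, the 66 other Rik genes and all 8091 compared genes, with dashed lines at 2-fold. The curve of the testis clone genes has reached 52% at the 2-fold lower line, while those of the other Rik genes and of all genes stand at 3.03% and 3.52% there.

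The highest bound was that of 1700074P13Rik, a protein-coding gene on chromosome 6 that the gene table also lists as Tryx5, a name of the trypsin-like serine proteases. Its wild type signal was 416.5 and its UBR2-/- signal 15.8, which makes it at least 16.9-fold lower. 4930544G11Rik, also on chromosome 6, read 280 (wild type) and 12.9 (UBR2-/-) and was at least 11.3-fold lower. 1700010I14Rik on chromosome 17 had 549.9 and 65 (8.46-fold lower, log2 ratio -3.08), and unlike the other 2 it stayed above the floor on the UBR2-/- array. A floor at the 60th percentile lay above the UBR2-/- signals of all these genes. The log2 ratios there were -2.62 for 1700010I14Rik, -2.22 for 1700074P13Rik and -1.65 for 4930544G11Rik. These are bounds that follow the wild type signals alone. With the floor at the 25th percentile the values were -3.08, -4.72 and -4.44 in the same order. With a pseudocount of 10 in place of the floor they were -2.90, -4.05 and -3.66.

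The sequences around the annotated starts of the first 3 genes, of 1700102P08Rik, which has several matches and a bright signal on both arrays, and of 4932438A13Rik, a bright gene within 2-fold, show what these promoters hold. Each is a RefSeq window of GRCm38.p6 from 250 bases before to 50 bases after the start, read 5′ to 3′ on the gene's strand. Capitals mark matches on either strand to 4 short cores: TGACGT (CRE, the site of CREB and CREM factors), CAGTTG (MYB factors such as the meiotic MYBL1), GTTGCC (RFX factors) and TATAAA, the core of the box that positions some transcription starts (TATA). 1700074P13Rik lies at chr6:40940508-40940807 (reverse strand), 4930544G11Rik at chr6:65952321-65952620 (forward), 1700010I14Rik at chr17:8988083-8988382 (forward), 1700102P08Rik at chr9:108392584-108392883 (forward) and 4932438A13Rik at chr3:36862856-36863155 (forward).
1700074P13Rik: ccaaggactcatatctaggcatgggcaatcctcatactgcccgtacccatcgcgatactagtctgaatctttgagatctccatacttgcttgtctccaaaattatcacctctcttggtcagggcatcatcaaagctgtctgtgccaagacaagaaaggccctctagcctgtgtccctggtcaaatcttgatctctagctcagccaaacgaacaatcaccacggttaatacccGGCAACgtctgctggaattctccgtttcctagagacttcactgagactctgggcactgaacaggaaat
4930544G11Rik: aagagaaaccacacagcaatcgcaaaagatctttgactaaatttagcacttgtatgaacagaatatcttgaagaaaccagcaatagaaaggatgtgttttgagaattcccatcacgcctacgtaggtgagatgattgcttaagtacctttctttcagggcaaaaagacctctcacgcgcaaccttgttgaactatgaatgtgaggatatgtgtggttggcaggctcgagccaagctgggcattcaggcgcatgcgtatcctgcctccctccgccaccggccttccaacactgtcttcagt
1700010I14Rik: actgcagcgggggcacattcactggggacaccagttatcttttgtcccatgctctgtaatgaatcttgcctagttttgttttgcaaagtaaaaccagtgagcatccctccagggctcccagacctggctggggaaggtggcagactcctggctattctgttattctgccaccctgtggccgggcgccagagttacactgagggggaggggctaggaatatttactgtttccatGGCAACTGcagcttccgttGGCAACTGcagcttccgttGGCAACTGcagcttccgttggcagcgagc
1700102P08Rik: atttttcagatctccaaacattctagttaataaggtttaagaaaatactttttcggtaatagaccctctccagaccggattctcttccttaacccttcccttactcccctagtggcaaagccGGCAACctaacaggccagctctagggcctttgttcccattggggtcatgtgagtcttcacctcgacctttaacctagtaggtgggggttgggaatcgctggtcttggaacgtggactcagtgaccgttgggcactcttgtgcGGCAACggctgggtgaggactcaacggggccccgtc
4932438A13Rik: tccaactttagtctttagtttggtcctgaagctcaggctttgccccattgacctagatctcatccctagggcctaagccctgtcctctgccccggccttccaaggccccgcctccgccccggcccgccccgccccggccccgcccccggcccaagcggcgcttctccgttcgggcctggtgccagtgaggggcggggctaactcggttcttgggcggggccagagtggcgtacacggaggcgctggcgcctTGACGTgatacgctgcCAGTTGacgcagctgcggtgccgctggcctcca

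The window of 1700010I14Rik holds 3 copies in a row of a 19-base unit, GGCAACTGcagcttccgtt, starting from 17 bases before to 21 bases after the annotated start. In each copy the RFX core and the MYB core, both read on the opposite strand, overlap to form the 8 capitals. This run of 8 bases or its reverse complement was present in 1.11% of 27025 promoter windows of the same length, and 1700010I14Rik was the 1 gene whose window held 3 copies of it. The repeat was chosen after it was seen, and no value of these arrays bears on its use. The window of 1700074P13Rik has a single RFX core, starting 18 bases before the start, that of 1700102P08Rik has 1 well upstream and 1 just past the start, and that of 4930544G11Rik has none of the 4 cores.

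Promoter windows were found for 54 of the 63 testis clone genes, with 1 window, the first listed, used per gene. Among the 12 at least 2-fold lower genes with a window, 4 held an RFX core, 2 a MYB core, 0 a CRE core and 0 a TATA core. Among the 11 compared within 2-fold, these counts were 4, 2, 3 and 1. An RFX core was present in 12.7% of all 27025 windows, in 12.6% of the 6652 windows of compared genes and in 25.5% of the windows of all 231 genes at least 2-fold lower. In the same order the shares were 13.6%, 9.88% and 16.5% for a MYB core, 7.64%, 12.6% and 8.66% for a CRE core, and 14.2%, 6.64% and 7.36% for a TATA core. None of the 4 cores was held by most genes of either group. The number of CG dinucleotides per window had a median of 10.5 (2 to 30) in the 12 lower genes and 23 (1 to 31) in the 11 within 2-fold, beside 22 in all compared genes and 18 in all genes at least 2-fold lower. 1700018F24Rik and 1700029F12Rik had only 2 each, while 1700088E04Rik, a lower gene, had 30, and the ranges overlap across nearly their whole width.

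The remaining 10 lower genes ran from about 2-fold to at least 7-fold. 1700018F24Rik, on chromosome 5, read 182.2 (wild type) and 4.6 (UBR2-/-) and was at least 7.38-fold lower. 1700029F12Rik, on chromosome 13, had 128 and 1.3 and was at least 5.18-fold lower. 1700029P11Rik, on chromosome 15, had 327.9 and 86.6 (3.79-fold lower). All 3 are protein-coding, and the first 2 were at the floor on the UBR2-/- array while 1700029P11Rik was not. 4931417E11Rik, also on chromosome 6, had 77.1 and 10.2 and was at least 3.12-fold lower. 4930524B15Rik on chromosome 11 had 138.5 and 49.9 (2.78-fold lower), and 1700088E04Rik on chromosome 15 had 133.9 and 54.1 (2.48-fold lower). With the floor at the 60th percentile 1700018F24Rik stayed past 2-fold at -1.03, but 1700029F12Rik (-0.52), 4930524B15Rik (-0.63) and 1700088E04Rik (-0.58) did not, and 4931417E11Rik was at the floor on both arrays.

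Among the other lower genes, 1700102P08Rik, a coding gene on chromosome 9, read 655.5 (wild type) and 277.9 (UBR2-/-), a 2.36-fold difference. 1700018B24Rik, a transcribed pseudogene on chromosome 3, had 670.2 and 317.4 (2.11-fold lower). Both kept a UBR2-/- signal far above the floor, so the floor does not touch them. 1700097N02Rik, the 1 long noncoding RNA among the compared testis clone genes, had 159.4 and 57.9 (2.75-fold lower). Both of its bright probe sets are of the kinds that can bind several transcripts, and without them its remaining probe set was at the floor on both arrays, while with the floor at the 60th percentile its log2 ratio was -0.83. With 1700020D05Rik, described next, these complete the 13.

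The 25 included a pair listed under names of the MAGE family, whose proteins bind RING ubiquitin ligases and of which several are made in the germ line. 1700020D05Rik, listed as mage-g2 on chromosome 19, read 78.5 (wild type) and 13.5 (UBR2-/-) and was at least 3.18-fold lower, but at the floor on both arrays with the 60th percentile floor. 4930550L24Rik, listed as mage-k1, was the 1 compared testis clone gene on the X chromosome, with 499.3 and 578.9 (log2 ratio 0.21). It was the highest of the 25, and its value turned to -0.13 when the arrays were scaled on spike-in controls.

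The other 11 genes lay within 2-fold. 4932438A13Rik, listed as Kiaa1109 and Tweek, encodes a very large lipid transfer protein, and with signals of 786.5 and 648.7 (log2 ratio -0.28) it was among the brightest on both arrays. 4933434E20Rik, listed as NICE-3, had 432.5 and 417.1 (-0.05). 4931406C07Rik had 473.1 and 418.8 (-0.18). All 3 were slightly lower on the UBR2-/- array. 1700017B05Rik had 233.6 and 212.5 (-0.14), and 1700123O20Rik had 217.3 and 230.2 (0.08), which turned to -0.26 with spike-in scaling. 1700030K09Rik had 137.1 and 109 (-0.33). All 3 are protein-coding genes on autosomes. 1700094D03Rik had 74.5 and 61.9 (-0.27), and 4930430F08Rik had 51.3 and 39.5 (-0.38). With the floor at the 60th percentile this pair was at the floor on both arrays.

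Of the genes within 2-fold, the nearest to the limit were 1700037H04Rik, with signals of 268.2 and 168.4 (log2 ratio -0.67), 4930453N24Rik, with 657.1 and 420.8 (-0.64), and 4921524J17Rik, with 782 and 564 (-0.47). Of the genes past it, the nearest were 1700018B24Rik, 1700102P08Rik and 1700088E04Rik, at -1.08, -1.24 and -1.31. By the brightest probe set, no compared testis clone gene had a log2 ratio between -1.08 and -0.67, so any limit inside that gap gives the same 13. The other probe set of 1700037H04Rik fell inside the gap, at -1.04.

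**Figure D3:**
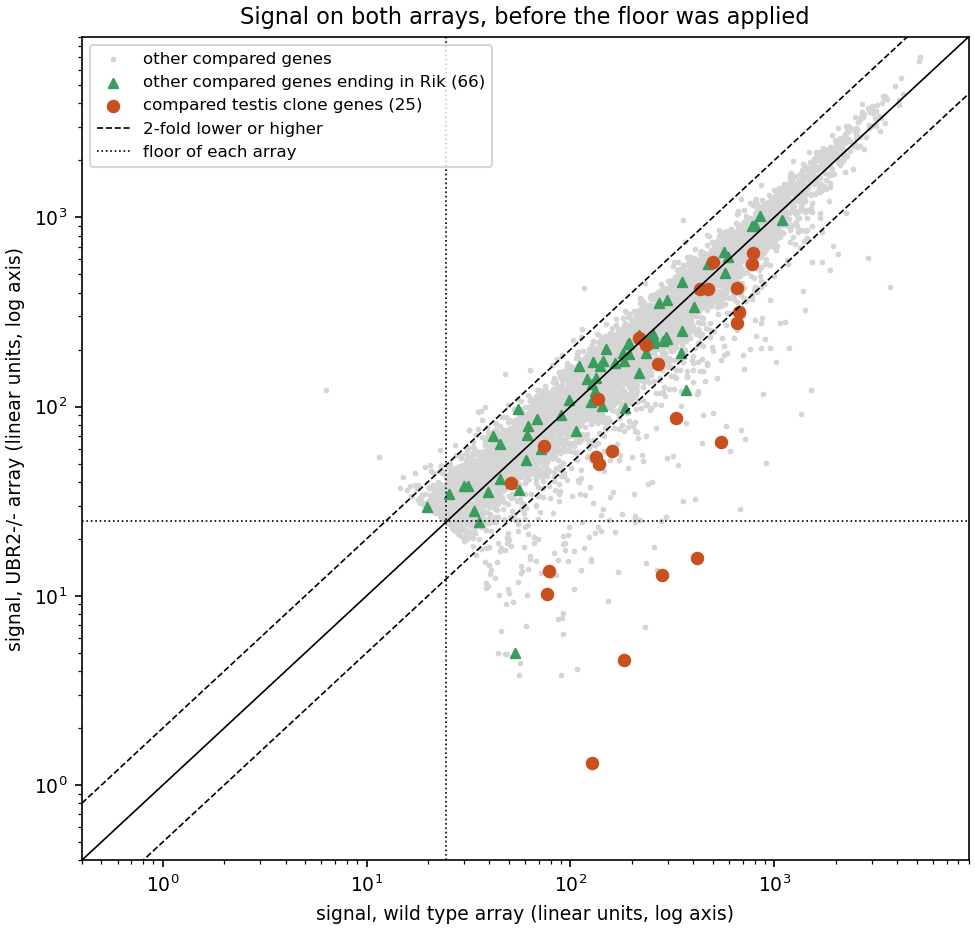
Signal on the UBR2-/- array against signal on the wild type array (linear units on log axes, before the floor was applied) for the 25 compared testis clone genes (circles), the 66 other compared Rik genes (triangles) and the other compared genes (grey), with solid lines for equality, dashed for 2-fold and dotted for the floors. The circles run from the line of equality down to signals below the UBR2-/- floor of 24.7, while the triangles follow the line of equality except for 2 below the lower dashed line.

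Where several probe sets read 1 gene, they bear on the error of a ratio, although both read the same arrays and leave out error between arrays or animals. Across all 3040 genes with several bright probe sets, a single probe set's log2 ratio had an SD of 0.22 (0.29 for dim, 0.21 for intermediate and 0.15 for bright pairs). Of the 79 probe sets of the testis clone genes, 32 were bright enough by the same rule, and 17 of those 32 were at least 2-fold lower. The 17 are the bright probe sets of the 13 lower genes, with 3 of 1700010I14Rik and 2 of 1700097N02Rik, and 1 of 1700037H04Rik. They repeat the genes already counted, and the share over all bright probe sets of the array is not given here. In 6 genes several bright probe sets could be set side by side, and they differed by at most 0.65 in log2 ratio. 1700010I14Rik was read by 3, with signals of 549.9 and 65, 454.9 and 64.4, and 195.6 and 36.4, and ratios from -3.08 to -2.43. 1700097N02Rik was read by 2 at -1.66 and -1.46, with signals of 101.4 and 32 for the other probe set, while the third was dim at 18.8 and 13.5. All of these bright probe sets were on the lower side of 2-fold. However, the 2 brighter sets of 1700010I14Rik are listed under the same sequence record and are not independent reads. The same holds for the bright sets of 1700097N02Rik and for those of 1700037H04Rik. The 1 set of 1700010I14Rik that is not of the kinds that can bind several transcripts gave -2.43. 1700037H04Rik straddled the limit at -1.04 and -0.67, with 199.7 and 97.3 for its other probe set. 4930453N24Rik had -0.86 and -0.64 in its 2 bright probe sets, and 3 others were below the floor on both arrays. 4931406C07Rik had -0.20 and -0.18, and 4933434E20Rik had -0.05 and 0.06.

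**Figure D4:**
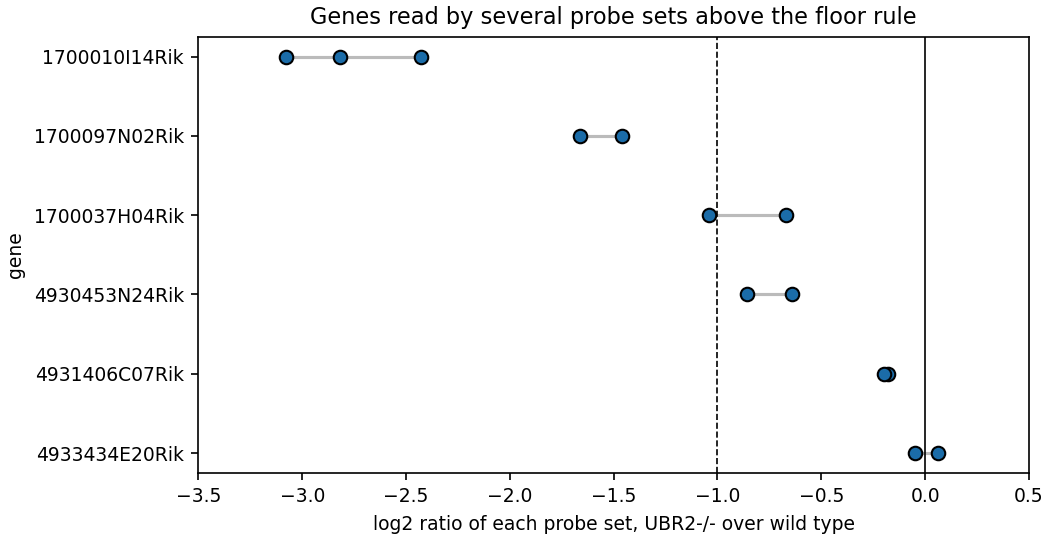
Log2 ratio of UBR2-/- over wild type for each bright probe set (points) of the 6 testis clone genes read by several, with lines at 0 and at 2-fold lower (dashed). Points of 1 gene lie within 0.65 of each other, and those of 1700037H04Rik fall on both sides of the dashed line.

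The other 38 testis clone genes were too dim to be compared. Their signals ran from 0.4 to 33.2 with a median of 5.8 in wild type, and from 0.2 to 17.3 with a median of 5.4 in UBR2-/-. In 36 of them both signals were at or under the floor, so no direction is given. The pair above the wild type floor was 1700129C05Rik, with 33.2 and 8.7, and 4933421I07Rik, with 28.2 and 0.9, and 0 of the 38 were above the floor on the UBR2-/- array. When all 63 genes were kept, with signals raised to the floor, the median log2 ratio was 0.02 for the testis clone genes, for the other Rik genes and for all 12393 genes, since most of the 63 sit at the floor on both arrays.

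Whether a testis clone gene was bright went with its gene type. Of 41 protein-coding genes 23 were compared and 11 of them were at least 2-fold lower. Of 16 long noncoding RNAs only 1700097N02Rik was compared, and of 4 transcribed pseudogenes only 1700018B24Rik, and both were lower. The last 2 of the 63, 1700082M22Rik and 4930571B16Rik, had no entry in the gene table and were dim. Over the whole array 66.1% of protein-coding genes and 29.5% of 122 long noncoding RNAs were compared. At least 2-fold lower were 281 of 8029 compared protein-coding genes, 3 of 36 long noncoding RNAs and 1 of 15 transcribed pseudogenes. Dim long noncoding RNAs of this list included 1700001G17Rik (16.4 and 8.1), 4930507D05Rik (22.6 and 17.3) and 4933431E20Rik (13.1 and 12.3), and dim coding genes included 4921536K21Rik (18.9 and 8.3) and 1700028P14Rik (16.6 and 8).

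By clone number, 34 of the 63 genes came from the 1700 series, of which 15 were compared and 10 were at least 2-fold lower, with a median log2 ratio of -1.31. The series beginning with 49 gave 29 genes, of which 10 were compared and 3 were lower, with a median of -0.42. The 3 were 4930544G11Rik, 4931417E11Rik and 4930524B15Rik. Of the 8 genes that share the first 4 digits of 4933434E20Rik, it alone was compared. The difference between the number series was not tested. The 13 lower genes lay on 9 autosomes, with 3 on chromosome 6 (all 3 compared there), 2 each on chromosomes 15 and 17, and 1 each on chromosomes 3, 5, 9, 11, 13 and 19. Chromosome 3 had 4 compared genes, of which 1700018B24Rik was lower, and chromosome 8 had 2, both within 2-fold.

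Neighbouring genes are described beside the 3.52% of all 8091 compared genes that were at least 2-fold lower. The counts of neighbours are too small to be set apart from that share. Of the 26 protein-coding neighbours in gene order of the 13 lower genes, 11 were compared, with a median log2 ratio of 0.01 (-1.94 to 0.78), and 1 was at least 2-fold lower. That 1 was Dnah8, a dynein heavy chain of the sperm tail, beside the noncoding 1700097N02Rik, with signals of 1063.2 and 276.6 (log2 ratio -1.94). On the other side of 1700097N02Rik was Glo1, a glyoxalase, at 0.78. Mad2l1, a spindle checkpoint gene beside 4930544G11Rik, had 800.2 and 803.8 (0.01), and Arpc1a, an actin regulator beside 1700018F24Rik, had 801.5 and 767.8 (-0.06). The serine protease gene Prss58 beside 1700074P13Rik was dim at 5.6 and 3.8. Of the 15 compared neighbours of the 12 genes within 2-fold, 2 were lower: Cep290, a ciliary gene that overlaps 4930430F08Rik, at -1.44, and Adad1, a germ cell RNA-binding gene beside 4932438A13Rik, at -1.07. 4933434E20Rik and 1700094D03Rik are neighbours of each other and overlap. In all, 14 of the 25 compared genes overlap another gene. Among the lower genes these are 1700074P13Rik, 1700029F12Rik, 1700020D05Rik (with Snx32), 4931417E11Rik, 4930524B15Rik, 1700088E04Rik (with Micall1) and 1700102P08Rik (with Iho1). None of the genes they overlap was read on the array under a single symbol. Whether any probe set of an overlapping pair reads both genes was not tested.

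The state of the germ cells stands beside these values as other genes show it. Ubr2 itself read 57.2 (wild type) and 14.3 (UBR2-/-) (at least 2.32-fold lower) in its 1 probe set. Of 13 late spermatocyte markers on the array, all compared, 10 were at least 2-fold lower with a median log2 ratio of -1.67, and their summed signal was 9221.6 in wild type and 2178 in UBR2-/-. Ldhc, the germ cell lactate dehydrogenase, had -3.11, Hspa2 had -0.90 and Adam3 had -3.43. Of 10 early meiotic prophase markers 1 was lower, with a median of -0.07 and sums of 10810.5 and 10294.1. Sertoli cell markers (9 compared, 1 lower) had sums of 8431.1 and 10917, peritubular myoid markers (6 compared, 0 lower) 2208.1 and 3149.4, spermatogonia markers (6 compared of 7, 1 lower) 4349.2 and 4378.2, Leydig cell markers (4 compared, 0 lower) 956.7 and 979.4, and macrophage markers (6 compared, 0 lower) 435.1 and 409.3. Of 5 spermatid markers 4 were at the floor on both arrays, with sums of 55.9 and 114.1, and the 1 compared, the protamine gene Prm1, was at least 2-fold higher on the UBR2-/- array, with 35.3 and 94 (log2 ratio 1.41). In these lists 0 markers had a signal of exactly 0. The part of any of these cell types in the values of the testis clone genes was not tested.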

How the data were processed

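The authors deposited intensities on a linear scale, 1 signal per probe set and array, made with MAS5 per the submitters' processing notes. The MAS5 version and detection calls and any genome build are not stated in the labels or the file. Both deposited arrays had a 2% trimmed mean of 149.98, so they had been scaled to a common level, and this scaling was kept. Each array held 22690 probe sets, 64 of them controls. The platform annotation gives a single gene symbol to 20380 of the remaining 22626, several to 691 and none to 1555, and only the first were used. A further 6 probe sets name a testis clone together with other genes and were left out. Through the Entrez identifier 61 of the 63 genes matched the GRCm38.p6 gene table, used for names, types, chromosomes and gene order, and all 61 kept the clone name there.

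The brightest probe set stood for its gene, the floor was the 40th percentile of an array, and counts use 2-fold. No p-value can be had from 1 array per genotype, and the number of arrays limits the precision. The calculation was tested on simulated data. Named genes are every compared testis clone gene past 2-fold, the 12 brightest, the 3 nearest to the limit on each side those on X or Y and, of the late spermatocyte list, its first 3 members; the other compared ones were added to complete the list, and neighbours and dim examples were chosen after their values were seen. The members, lists and tests were chosen with earlier results of these data known. Neighbouring genes, overlaps and the promoter repeat were also looked at after the data. Protein features were not analysed here. Versions were Python 3.11.15, pandas 2.3.3 and statsmodels 0.14.6.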

Additional observations from a re-analysis of the deposited data

How the results depend on the processing

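The count of 13 genes at least 2-fold lower stayed within 12 to 16 under equal array medians, quantile normalization, loess (span 0.3), spike-in scaling, a floor at the 25th percentile, a pseudocount of 10, no filter on dim genes, the mean over probe sets and the exclusion of probe sets that can bind several transcripts, and it was 15 at 1.5-fold. In several settings the number compared or the share of all genes moved too. The count was 16 of 39 (41%, against 4.1% of all genes) with the 25th percentile floor and 13 of 63 (20.6%, against 2.3%) with no filter. With spike-in scaling it was 14 of 25 (56%, against 6.43%), and at 1.5-fold 15 of 25 (60%, against 7.71%). Without probe sets that can bind several transcripts it was 12 of 22 (54.5%, against 3.54%). The count fell to 7 of 20 (35%, against 2.63%) under a 60th percentile floor, 8 of 25 (32%, against 1.5%) at 3-fold and 6 of 17 with a signal of at least 50 required on the UBR2-/- array, a limit chosen after seeing the data. The count of higher genes was 0 in all 16 settings. The median of -1.08 moved to -1.42 with spike-in scaling, which took the median of all genes from 0.07 to -0.27, to -0.64 with the floor at either the 25th or the 60th percentile, to -0.47 with the limit on the UBR2-/- array, and to 0.02 with no filter, where 36 of 63 genes were at the floor on both arrays. Its distance from all genes, -1.15, moved to -0.72 and -0.70 with these floors, -0.56 with that limit and 0.00 with no filter. Of the 13 genes, 7 were at least 2-fold lower in all settings run for them, 10 each except for 1700074P13Rik, with 9, since its probe set can bind several transcripts. The other 6 lost the call with the floor at the 60th percentile: 1700029F12Rik (-0.52), 1700088E04Rik (-0.58), 4930524B15Rik (-0.63), 1700097N02Rik (-0.83), and 1700020D05Rik and 4931417E11Rik, which were at the floor on both arrays, at 0.02, as was 1700097N02Rik without probe sets that can bind several transcripts. The 25th percentile floor added 1700129C05Rik, 4921536K21Rik and 4933421I07Rik to the lower genes. No gene of the list had been renamed, so the alternative for renamed genes gave no value. No paired analysis was possible because each genotype had 1 array, and no array could be left out.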
